A study of Agaricus bisporus with 12 samples.

Results

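Compost carrying the mycelium of Agaricus bisporus strain A15 and sampled after the second flush was compared with compost sampled at the first flush. The 4 libraries, 2 from after the second flush and 2 from the first flush, were taken by their stage label alone, out of 12 libraries in the series. A15 is a commercial heterokaryon of the button mushroom, and the labels give no altered allele and no added agent in any group. Both groups shared the same start: compost of wheat straw, manure and gypsum was spawned, held at 25 °C for 16 days and covered with a casing of peat and lime, and mushrooms then came in waves called flushes. RNA came from whole compost, so it mixes all mycelium of the sample, and the series asks which plant-degrading functions that mycelium uses over 6 stages. The 4 stages not compared here were spawning, pinning, the time after the first flush and the second flush, also with 2 libraries each.

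Button mushroom mycelium lives as a decomposer of composted straw. Its secreted laccases and manganese peroxidase oxidise lignin phenols, while cellobiohydrolases, endoglucanases and beta-glucosidases split cellulose, xylanases and mannanases split hemicellulose, and pectate lyases and polygalacturonases split pectin. Inside the cell, sugars pass through glycolysis, whereas fatty acids are cut to acetyl-CoA by beta-oxidation and can build sugars only through the glyoxylate cycle, whose own enzymes are isocitrate lyase and malate synthase.

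Uniquely placed reads in genes numbered 9.18 M and 9.22 M after second flush, against 8.99 M and 9.11 M at first flush. CPM values are counts scaled to the library total, adjusted by the TMM factor of the library. Within a stage the log2 CPM values correlated at 0.988 across genes in both stages, against 0.928 to 0.931 between the stages. Genes are not independent replicates. Of 8814 genes tested, 1833 (20.8%) were higher after second flush and 1713 (19.4%) were lower, and 40.2% were called in either direction. The calls came from edgeR (quasi-likelihood, Benjamini-Hochberg adjusted p under 0.05). Over 2-fold, 683 (7.75%) were higher and 709 (8.04%) lower. The median log2 change over all tested genes was −0.00142. Without first flush library 1 the count of higher genes was 1220, and without after second flush library 2 that of lower genes was 1130. No label ties the libraries to beds or containers, so these p-values measure only the spread between samples, which may be technical. In the submitters' codes the letter of the first flush libraries differs from that of the other 10. Any batch that this letter might stand for cannot be told apart from the stage. In bulk compost, fewer hyphae of a kind and less RNA in each cannot be told apart either.

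Levels are RPKM values (reads per kilobase of gene, scaled by the total of the library), given first for the 2 libraries of after second flush and then for the 2 of first flush. Log2 changes are after second flush minus first flush. In RPKM the libraries of both stages did not overlap in any gene given below as called. Over all tested genes 72.4% did not overlap between the stages in CPM. Genes are named by their description in the files, which for most rests on similarity alone, and by their number. The gene lists were counted, not tested, and each count stands beside the 20.8% and 19.4% of all tested genes called higher and lower.

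**Figure D1:**
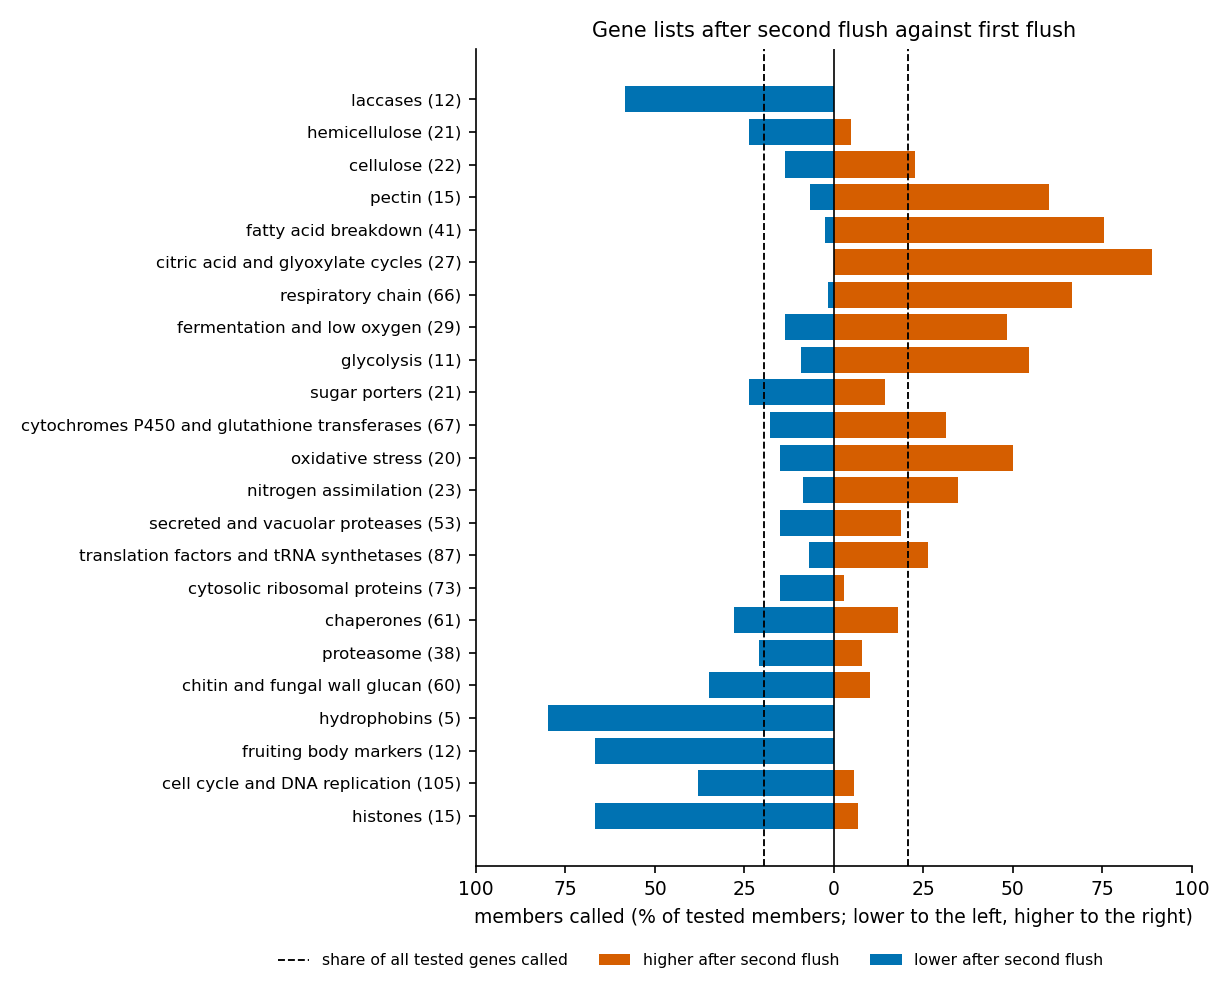
The bars give, for a selection of the gene lists, the share of tested members (number in brackets) called higher after second flush (right, orange) or lower (left, blue), and the dashed lines mark the 20.8% and 19.4% of all tested genes called. Of the lists shown, those of citric acid and glyoxylate enzymes, fatty acid breakdown and the respiratory chain extend furthest to the right, and hydrophobins, histones, fruiting body markers and laccases furthest to the left.

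The main cellulases and xylanases were abundant at both stages, and most of them were not called in the fit over all 12 libraries. Of the 58 tested members of the cellulose, hemicellulose and pectin lists, 26 had a higher mean at both of these stages than at each of the other 4, which 9.39% of all tested genes did, a likeness for which these 2 stages were set side by side. Cellulose genes held 1.13% and 0.99% of reads after second flush, against 1.78% and 1.29% at first flush, and hemicellulose genes held 0.64% and 0.546% of reads after second flush, against 1.02% and 0.839% at first flush. Both sums were lower in both after second flush libraries than in either first flush library, without a test.

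Cellobiohydrolases release cellobiose from chain ends. The 3 genes counted as such here were described as exoglucanases or, in gene 214617, only as a CEL6 protein. Exoglucanase 3 (gene 190390) had 2382 and 1967 RPKM after second flush, against 3326 and 2698 RPKM at first flush (log2 change −0.42, SE 0.82, edgeR adjusted p = 0.715). The other exoglucanase (gene 194521) had 1691 and 1468 RPKM after second flush, against 3102 and 1924 RPKM at first flush (−0.62, SE 0.85, edgeR adjusted p = 0.599). The CEL6 protein (gene 214617) had 110.3 and 88.1 RPKM after second flush, against 169 and 124 RPKM at first flush (−0.51, SE 0.52, edgeR adjusted p = 0.47). All 3 were lower in both after second flush libraries and none was called, although in a fit of the 4 libraries alone the CEL6 protein was (edgeR adjusted p = 0.0452). A cellulose-growth-specific protein (gene 226235), a type of secreted oxidative cellulase, had 361 and 279.8 RPKM after second flush, against 450.3 and 316 RPKM at first flush (−0.21, SE 0.78, edgeR adjusted p = 0.856), with overlapping libraries.

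Endoglucanases, which cut inside cellulose chains, did not move as a block: 4 of 12 rose and 0 fell. The largest rise was in gene 136180, at 86.5 and 83.9 RPKM after second flush, against 5.93 and 6.58 RPKM at first flush (log2 change 3.82, SE 1.06, edgeR adjusted p = 0.0263). Its libraries lay far apart between the stages, and the fit of the 4 libraries alone called it too (edgeR adjusted p = 4.52e-06). The call was lost in each of the 4 fits without 1 library (log2 change 3.73 to 3.91), which share their spread with the other stages. After first flush its 2 libraries had 3.04 and 41.1 RPKM. The 3 endoglucanases whose lowest stage mean was at first flush rose as well. Gene 196143 had 258 and 388 RPKM after second flush, against 95 and 86.2 RPKM at first flush (1.90, SE 0.21, edgeR adjusted p = 4.75e-05). Gene 181656 had 145 and 151 RPKM after second flush, against 65.9 and 66.3 RPKM at first flush (1.22, SE 0.16, edgeR adjusted p = 0.000129). The last of them, gene 150171, had 15.1 and 14.1 RPKM after second flush, against 6.5 and 11.2 RPKM at first flush (0.77, SE 0.26, edgeR adjusted p = 0.0331). Its call was lost without after second flush library 1, without after second flush library 2 and without first flush library 1 (log2 change 0.76, 0.78 and 0.42). The 5 endoglucanases with the highest first flush levels were not called in either direction. Gene 192993 had 587 and 613 RPKM after second flush, against 456 and 315 RPKM at first flush (0.70, SE 0.84, edgeR adjusted p = 0.545) and gene 189329 had 313 and 293 RPKM after second flush, against 653 and 468 RPKM at first flush (−0.83, SE 0.39, edgeR adjusted p = 0.122), so they lay on opposite sides of 0 without a call. Gene 194478, with 191 and 157 RPKM after second flush, against 447 and 403 RPKM at first flush, was likewise not called (edgeR adjusted p = 0.111). In the fit of the 4 libraries alone, which does not share its spread with the other stages, 192993 was called higher and 189329 and 194478 lower (edgeR adjusted p = 0.014, 0.00464 and 0.000261). DESeq2 called 189329 lower too (adjusted p = 0.0394).

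Beta-glucosidases, which turn cellobiose into glucose, split by gene, with 3 of 6 lower and 1 higher. Gene 194744, the most abundant of them, fell to 168 and 134 RPKM after second flush, against 674 and 533 RPKM at first flush (log2 change −1.95, SE 0.26, edgeR adjusted p = 0.000262). Gene 177002 had 71.3 and 58.4 RPKM after second flush, against 334 and 223 RPKM at first flush (−2.05, SE 0.26, edgeR adjusted p = 0.000186). Gene 213076 had 19.1 and 17.4 RPKM after second flush, against 67 and 40.1 RPKM at first flush (−1.50, SE 0.20, edgeR adjusted p = 0.000152). The remaining call went the other way. Gene 217305 had 61.2 and 73.1 RPKM after second flush, against 19.2 and 14.5 RPKM at first flush (2.05, SE 0.20, edgeR adjusted p = 2.13e-05). Each of the 4 kept its call without any 1 library, and in none did the libraries of the 2 stages overlap. In all, 5 of 22 cellulose genes rose and 3 fell, with a median log2 change of −0.19. The 5 became 3 without either after second flush library or without first flush library 1, and the 3 became 6 in the fit of the 4 libraries alone. With the 15 glucan 1,3-beta-glucosidases added, the counts were 6 higher and 8 lower of 37.

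In the hemicellulose list 1 of 21 genes rose and 5 fell (median −0.16). The 2 xylanases with the highest levels had lower values after second flush without being called. Endo-1,4-beta-xylanase 196181 had 1705 and 1246 RPKM after second flush, against 3216 and 2509 RPKM at first flush (log2 change −0.91, SE 0.82, edgeR adjusted p = 0.419). Its relative 133541 had 1134 and 1153 RPKM after second flush, against 2513 and 2205 RPKM at first flush (−0.99, SE 0.67, edgeR adjusted p = 0.276). The fit of the 4 libraries alone called both lower (edgeR adjusted p = 0.00427 and 0.000753), and in it 2 hemicellulose genes were higher and 8 lower. An acetylxylan esterase (gene 196213), which takes acetyl groups off xylan, had 356 and 383 RPKM after second flush, against 311 and 293 RPKM at first flush (0.35, SE 0.51, edgeR adjusted p = 0.621).

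Called lower were single genes for enzymes of mannan, of xylan and of xyloglucan, while more abundant genes of some of these annotations were not called. The CEL4a mannanase (gene 192609) had 122 and 97.4 RPKM after second flush, against 459 and 329.7 RPKM at first flush (log2 change −1.79, SE 0.48, edgeR adjusted p = 0.0199). The fit of the 4 libraries alone called it lower too (edgeR adjusted p = 0.000131). Its call was lost without after second flush library 1, without after second flush library 2 and without first flush library 1 (log2 change −1.92, −1.67 and −1.55). A beta-mannosidase (gene 188899), which releases mannose, had 11.3 and 4.35 RPKM after second flush, against 43.8 and 36.5 RPKM at first flush (−2.31, SE 0.42, edgeR adjusted p = 0.00265). An alpha-N-arabinofuranosidase (gene 194576), which trims arabinose from xylan, had 100.3 and 62.3 RPKM after second flush, against 313 and 260.0 RPKM at first flush (−1.77, SE 0.32, edgeR adjusted p = 0.00201). Both stayed clear of the first flush range. The other falls were an alpha-D-xyloside xylohydrolase (gene 75421, −1.95, SE 0.31, edgeR adjusted p = 0.000526) and a beta-D-xylosidase (gene 67675, −0.82, SE 0.26, edgeR adjusted p = 0.0273). Gene 75421 had 1.45 and 1.06 RPKM after second flush, against 3.51 and 6.54 RPKM at first flush. Gene 67675 had 9.6 and 8.52 RPKM after second flush, against 17.4 and 15.8 RPKM at first flush, and lost its call in each of the 4 fits without 1 library. Not called were the more abundant beta-mannosidase 202715 (−0.10, SE 0.31, edgeR adjusted p = 0.816), alpha-D-xyloside xylohydrolase 183497 (0.08, SE 0.23, edgeR adjusted p = 0.801) and beta-D-xylosidase 219902 (0.23, SE 0.46, edgeR adjusted p = 0.721). The count of 5 was 3 without either after second flush library or without first flush library 1. The single rise was an alpha-L-fucosidase (gene 209111), which removes fucose, with 83.5 and 58.2 RPKM after second flush, against 12.6 and 9.36 RPKM at first flush (2.74, SE 0.27, edgeR adjusted p = 4.89e-05).

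Pectin enzymes were the plant wall group that was higher after second flush. Of 16 genes with a read, 15 were tested, 9 rose and 1 fell, with a median log2 change of 1.32, and the list held 0.121% and 0.0804% of reads after second flush, against 0.0463% and 0.0434% at first flush. A pectate lyase (gene 139877), which cleaves the pectin backbone, had 485 and 273 RPKM after second flush, against 56.6 and 65.2 RPKM at first flush (log2 change 2.68, SE 0.76, edgeR adjusted p = 0.0273). It had the highest level of the list after second flush, where the list summed to 954 and 639 RPKM. The read share of the list after second flush thus rested in large part on this gene. Its call was lost in each of the 4 fits without 1 library (log2 change 2.25 to 3.01), and the fit of the 4 libraries alone called it (edgeR adjusted p = 0.000624). The other pectate lyase (gene 195581) had 32 and 20.1 RPKM after second flush, against 5.71 and 9.31 RPKM at first flush (1.83, SE 0.27, edgeR adjusted p = 0.000309). A polygalacturonase (gene 121792), which hydrolyses the same backbone, had 62.2 and 49.3 RPKM after second flush, against 17.3 and 13 RPKM at first flush (1.93, SE 0.20, edgeR adjusted p = 3.58e-05).

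Enzymes of the hairy, rhamnose-bearing part of pectin were among the rises. An unsaturated rhamnogalacturonyl hydrolase (gene 184682) had 43.4 and 38.6 RPKM after second flush, against 12.6 and 8.4 RPKM at first flush (log2 change 2.02, SE 0.22, edgeR adjusted p = 4.7e-05). Its relative 146117 had 26.6 and 22.7 RPKM after second flush, against 16.7 and 13.9 RPKM at first flush (0.73, SE 0.17, edgeR adjusted p = 0.00597). A rhamnogalacturonan acetylesterase (gene 62194) had 11 and 6.5 RPKM after second flush, against 2.92 and 3.01 RPKM at first flush (1.60, SE 0.29, edgeR adjusted p = 0.00137). One more gene of this type was not called. The other (gene 132820) had 34.1 and 28.4 RPKM after second flush, against 29.8 and 33.7 RPKM at first flush with overlapping libraries (0.03, SE 0.21, edgeR adjusted p = 0.93). An arabinan endo-arabinosidase (gene 224152), which shortens arabinan side chains, had 57.9 and 32.7 RPKM after second flush, against 19.2 and 18 RPKM at first flush (1.32, SE 0.22, edgeR adjusted p = 0.00083). Pectinesterase 179502 (0.90, SE 0.28, edgeR adjusted p = 0.0272) and a galacturonidase (gene 118209, 1.42, SE 0.38, edgeR adjusted p = 0.0127) rose as well. Gene 118209 had 12.8 and 8.82 RPKM after second flush, against 3.56 and 4.78 RPKM at first flush. Galacturonidases 194940 (−0.26, SE 0.22, edgeR adjusted p = 0.388) and 194942 (−0.14, SE 0.21, edgeR adjusted p = 0.631), with higher levels, were not called. The arabinogalactan galactosidase 225045 was the fall, with 83.5 and 80.7 RPKM after second flush, against 126 and 111 RPKM at first flush (−0.48, SE 0.12, edgeR adjusted p = 0.0089). Without 1 library the list had between 6 and 8 rises, and the fall was lost without first flush library 1 (edgeR adjusted p = 0.0665). The calls that did not last were 146117 without first flush library 2 (edgeR adjusted p = 0.0524), 118209 without after second flush library 1 (edgeR adjusted p = 0.082) and without first flush library 1 (edgeR adjusted p = 0.0956), and 179502 without after second flush library 1, without first flush library 1 and without first flush library 2 (edgeR adjusted p = 0.144, 0.0987 and 0.12). On unscaled RPKM, 179502 was not called at either pseudocount (limma adjusted p = 0.06 and 0.0826), nor 118209 at the smaller one (limma adjusted p = 0.0511).

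**Figure D2:**
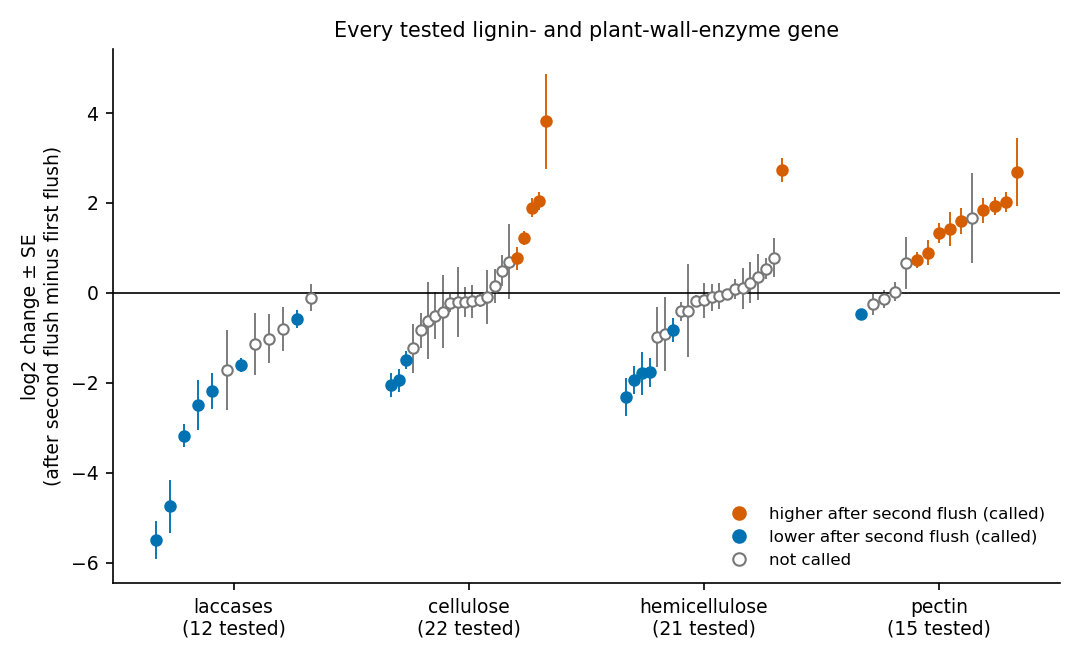
Each point is one tested gene of the laccase, cellulose, hemicellulose or pectin list, with its log2 change (after second flush minus first flush) ± SE on the vertical axis, sorted within its list. All 12 laccases lie below 0 with 7 called, the cellulose and hemicellulose genes lie on both sides, and 9 of 15 pectin genes are called above 0.

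Laccases, copper enzymes that oxidise lignin phenols, were lower after second flush. Of the 12 genes, which count the laccase-2 small subunit as 1, 7 fell and 0 rose (median −1.66), and they held 0.156% and 0.0947% of reads after second flush, against 0.55% and 0.572% at first flush. Laccase-5 (gene 135711) had 2.53 and 1.35 RPKM after second flush, against 108 and 74.1 RPKM at first flush (log2 change −5.49, SE 0.43, edgeR adjusted p = 1.67e-05). Laccase-1 (gene 146228) had 24.5 and 14.9 RPKM after second flush, against 609 and 486 RPKM at first flush (−4.75, SE 0.58, edgeR adjusted p = 0.000469). Laccase-11 (gene 209229) had 6.12 and 4.42 RPKM after second flush, against 48.4 and 50.2 RPKM at first flush (−3.17, SE 0.26, edgeR adjusted p = 7.91e-06). In these 3 every after second flush library was far under every first flush library. Laccase-7 (gene 117501) had 22.9 and 11.5 RPKM after second flush, against 94.5 and 66.3 RPKM at first flush (−2.18, SE 0.40, edgeR adjusted p = 0.00291). Laccase-9 (gene 194714) had 73.9 and 88.5 RPKM after second flush, against 250.1 and 262 RPKM at first flush (−1.60, SE 0.16, edgeR adjusted p = 2.33e-05).

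The laccase-2 small subunit (gene 149407) had 446 and 247 RPKM after second flush, against 1832 and 2183 RPKM at first flush (log2 change −2.49, SE 0.55, edgeR adjusted p = 0.00867). This call was lost without after second flush library 2 (edgeR adjusted p = 0.0658). The small subunit had the highest level of the list at first flush, and laccase-2 itself (gene 139148) after second flush. Laccase-2 had 626 and 325 RPKM after second flush, against 1519.8 and 1700.0 RPKM at first flush (−1.72, SE 0.89, edgeR adjusted p = 0.168). The fit of the 4 libraries alone called laccase-2 and laccase-12 lower (edgeR adjusted p = 0.00644 and 0.000625), for 9 falls. Laccase-4 (gene 186398, −0.58, SE 0.20, edgeR adjusted p = 0.0367) lost its call in each of the 4 fits without 1 library (edgeR adjusted p 0.0526 to 0.197). Laccases 3, 8, 10 and 12 were not called, the values of laccase-8 being 2.32 and 1.56 RPKM after second flush, against 2.05 and 2.27 RPKM at first flush. Since only uniquely placed reads were counted, the levels of close relatives among laccases and hydrophobins are uncertain.

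Manganese peroxidase 221245, a heme enzyme that attacks lignin and has no described secreted relative here, had 39.6 and 24.6 RPKM after second flush, against 27.2 and 38.3 RPKM at first flush (log2 change 0.01, SE 0.28, edgeR adjusted p = 0.977), so its stages overlapped. The list of peroxide-forming oxidoreductases holds oxidases, of a kind that can make hydrogen peroxide for such peroxidases, and also genes annotated as dehydrogenases. Among its 34 tested genes 6 rose and 5 fell (median −0.17). The 5 became 3 without either after second flush library or without first flush library 1. The largest rise was a choline dehydrogenase-like gene (gene 205343) with 7.82 and 7.29 RPKM after second flush, against 1.89 and 1.3 RPKM at first flush (2.29, SE 0.26, edgeR adjusted p = 4.75e-05), and the largest fall was another (gene 185801) with 32.9 and 37.9 RPKM after second flush, against 229 and 176 RPKM at first flush (−2.46, SE 0.32, edgeR adjusted p = 0.000316). The most abundant, an alcohol oxidase (gene 195553), had 214 and 114 RPKM after second flush, against 318 and 238 RPKM at first flush (−0.72, SE 0.66, edgeR adjusted p = 0.423). Cutinase 190202, an esterase for the waxy coat of plants, had 12.5 and 9.14 RPKM after second flush, against 75.2 and 46.7 RPKM at first flush (−2.44, SE 0.26, edgeR adjusted p = 3.48e-05), and 2 of 4 cutinases fell.

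Enzymes that burn fatty acids and acetyl-CoA were higher after second flush. In the list of citric acid and glyoxylate cycle genes 24 of 27 rose and 0 fell (median 0.87), and the list held 0.921% and 0.979% of reads after second flush, against 0.438% and 0.439% at first flush. In the fatty acid breakdown list 31 of 41 tested genes rose and 1 fell (median 0.83), with 1.16% and 1.24% of reads after second flush, against 0.527% and 0.535% at first flush. Both counts lay well over the 20.8% of all genes that rose.

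Malate synthase (gene 188880), which joins glyoxylate to acetyl-CoA, had 701 and 622 RPKM after second flush, against 57 and 62.1 RPKM at first flush (log2 change 3.52, SE 0.21, edgeR adjusted p = 7.38e-07). Isocitrate lyase (gene 193793), the other enzyme of the glyoxylate cycle, had 342 and 392 RPKM after second flush, against 92.9 and 75.6 RPKM at first flush (2.18, SE 0.29, edgeR adjusted p = 0.000258). A second isocitrate lyase (gene 189483) had 178 and 201 RPKM after second flush, against 84.2 and 85.5 RPKM at first flush (1.22, SE 0.16, edgeR adjusted p = 0.000141). The glyoxylate pair thus lay over first flush in every library. A citrate synthase named as peroxisomal (gene 191163) had 312 and 431 RPKM after second flush, against 84 and 79.7 RPKM at first flush (2.24, SE 0.22, edgeR adjusted p = 2.51e-05). These 3 named beside malate synthase were picked after their values were seen. In the cycle shared with respiration, NAD-malate dehydrogenase (gene 187815), the most abundant gene of the list, had 1279 and 1432 RPKM after second flush, against 494 and 552 RPKM at first flush (1.43, SE 0.14, edgeR adjusted p = 2.23e-05). The 3 genes of the list that were not called were aconitase 77333 (0.21, SE 0.16, edgeR adjusted p = 0.323), 2-oxoglutarate dehydrogenase 193525 (0.30, SE 0.12, edgeR adjusted p = 0.0691) and citrate synthase 200580 (0.38, SE 0.20, edgeR adjusted p = 0.145), each with a positive change.

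In beta-oxidation the most abundant gene, an acetyl-CoA acyltransferase (gene 193507) that makes the last cut, had 1298 and 1403 RPKM after second flush, against 228 and 225 RPKM at first flush (log2 change 2.63, SE 0.16, edgeR adjusted p = 8.11e-07). The largest rise was an acyl-CoA synthetase (gene 186749), a type that activates fatty acids, with 199 and 239 RPKM after second flush, against 34.2 and 35.7 RPKM at first flush (2.70, SE 0.18, edgeR adjusted p = 1.77e-06). Some genes of the middle steps, picked after their values were seen, were higher too. Acyl-CoA dehydrogenase 191688 had 819.6 and 820.1 RPKM after second flush, against 179 and 182 RPKM at first flush (2.23, SE 0.17, edgeR adjusted p = 3.51e-06). The multifunctional beta-oxidation protein 194845 had 293 and 359.7 RPKM after second flush, against 75.6 and 88 RPKM at first flush (2.05, SE 0.17, edgeR adjusted p = 5.84e-06). Acyl-CoA oxidase 227257 had 141 and 149 RPKM after second flush, against 60.7 and 59.4 RPKM at first flush (1.33, SE 0.13, edgeR adjusted p = 1.67e-05). In each of these enzymes the 2 libraries of a stage lay close together. A carnitine O-acetyltransferase (gene 193306, also picked so), which ferries acetyl groups between compartments, had 119.8 and 137 RPKM after second flush, against 44.5 and 42.3 RPKM at first flush (1.62, SE 0.13, edgeR adjusted p = 5.24e-06). The single fall was a long-chain acyl-CoA synthetase with low values (gene 70890), 1.21 and 1.0 RPKM after second flush, against 3.4 and 2.44 RPKM at first flush (−1.35, SE 0.22, edgeR adjusted p = 0.000638). Of the 41 tested genes of the list 9 were not called, and 6, this one included, had a negative change.

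**Figure D3:**
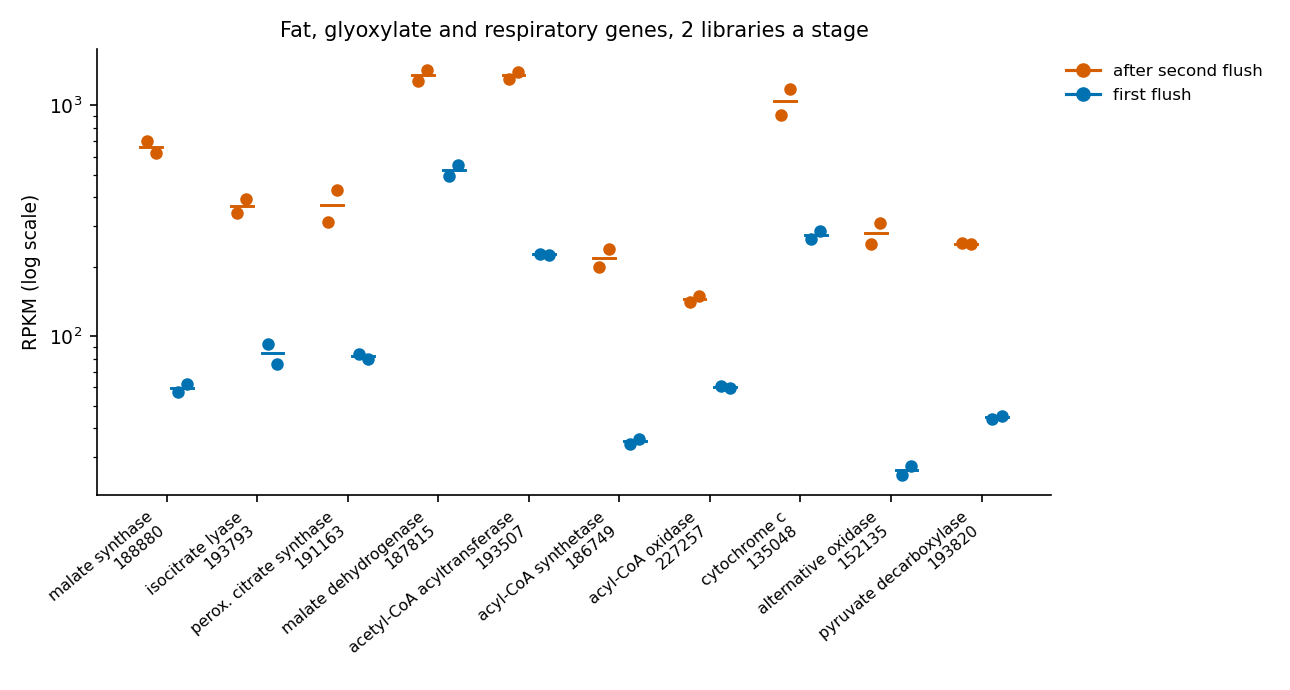
Points are the 2 libraries of each stage and short lines their mean, in RPKM on a log axis, for 10 genes of the glyoxylate cycle, beta-oxidation, respiration and fermentation (gene numbers under the names). For each annotation the gene with the largest rise is shown. In each gene both after second flush libraries (orange, left) lie over both first flush libraries (blue, right), a shared direction set in large part by this choice.

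The respiratory chain rose with them: 44 of 66 tested genes were higher and 1 was lower (median 0.49), with 1.2% and 1.22% of reads after second flush, against 0.782% and 0.818% at first flush. The list shares 5 succinate dehydrogenase genes with the citric acid list. Cytochrome c (gene 135048), the electron carrier and the most abundant of the list, had 908 and 1174 RPKM after second flush, against 264 and 285 RPKM at first flush (log2 change 1.98, SE 0.24, edgeR adjusted p = 0.000109). The ATP synthase beta subunit (gene 190409, picked after its values were seen) had 732 and 734 RPKM after second flush, against 433 and 406 RPKM at first flush (0.86, SE 0.15, edgeR adjusted p = 0.00108). The largest fitted rise was a gene annotated as complex I subunit alpha 9 (gene 198504), with 5.57 and 7.2 RPKM after second flush, against 0.142 and 0.14 RPKM at first flush (5.37, SE 0.61, edgeR adjusted p = 5.25e-05), so that it had few reads at first flush. The single fall was in a part of the chain that does not pump protons. It was NDE2, an external NADH dehydrogenase (gene 227697), with 43.6 and 44.8 RPKM after second flush, against 80.3 and 77.2 RPKM at first flush (−0.78, SE 0.13, edgeR adjusted p = 0.000565). Of 8 mitochondrial ribosomal proteins 4 rose, whereas of 73 cytosolic ones 2 rose and 11 fell (medians 0.39 and −0.10). The 11 were 3 without after second flush library 1, 2 without after second flush library 2 or without first flush library 2, and 7 in the fit of the 4 libraries alone. The 2 were 1 without after second flush library 2.

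The alternative oxidase (gene 152135), a mitochondrial enzyme that passes electrons to oxygen around the cytochrome chain, had 251 and 309.7 RPKM after second flush, against 25.1 and 27.3 RPKM at first flush (log2 change 3.48, SE 0.66, edgeR adjusted p = 0.00501). After first flush its libraries had 834 and 197 RPKM. It was counted in the list of fermentation and low-oxygen genes, although it uses oxygen, and had the largest rise there. Of that list 14 of 29 tested genes rose and 4 fell (median 0.56). Pyruvate decarboxylase (gene 193820, picked after its values were seen), the first step from pyruvate to ethanol, had 253 and 251 RPKM after second flush, against 43.7 and 45.3 RPKM at first flush (2.55, SE 0.26, edgeR adjusted p = 3.79e-05). The most abundant alcohol dehydrogenase (gene 192853) had 584 and 580.2 RPKM after second flush, against 316 and 334 RPKM at first flush (0.89, SE 0.17, edgeR adjusted p = 0.00182), and the largest fall was another (gene 151116) with 20.3 and 26.7 RPKM after second flush, against 127 and 221 RPKM at first flush (−2.83, SE 0.40, edgeR adjusted p = 0.000629).

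In glycolysis 6 of 11 tested genes rose and 1 fell (median 0.67). Fructose-bisphosphate aldolase (gene 192128), which splits the hexose, had 446 and 439 RPKM after second flush, against 184 and 196 RPKM at first flush (log2 change 1.27, SE 0.14, edgeR adjusted p = 3.8e-05). Glyceraldehyde-3-phosphate dehydrogenase 2 (gene 138631), the most abundant, had 1962 and 1745 RPKM after second flush, against 1003 and 1128 RPKM at first flush (0.85, SE 0.14, edgeR adjusted p = 0.000625). Glucose-6-phosphate isomerase (gene 194643) was the fall, with 222 and 179 RPKM after second flush, against 318 and 365 RPKM at first flush (−0.72, SE 0.22, edgeR adjusted p = 0.0242), and it kept its call only without first flush library 1. In the list of pentose, polyol and hexose entry 9 of 25 rose and 4 fell, the 9 being 5 without either after second flush library or first flush library 2 and 4 without first flush library 1. The 4 were 2 without after second flush library 1, 1 without after second flush library 2 and 0 without first flush library 2. NADP-dependent mannitol dehydrogenase (gene 194752), which makes the storage polyol of mushrooms, was the most abundant there with 1567 and 1343 RPKM after second flush, against 2305 and 2684 RPKM at first flush (−0.73, SE 0.22, edgeR adjusted p = 0.02), a call that held only without first flush library 1.

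Sugar porters, which carry sugars into the cell, lay near the background: 3 of 21 rose and 5 fell (median −0.10), the 5 being 3 without after second flush library 2 or first flush library 1. The most abundant, gene 193226, had 603 and 689 RPKM after second flush, against 633 and 783 RPKM at first flush (log2 change −0.08, SE 0.16, edgeR adjusted p = 0.721), with overlapping libraries. Gene 213473 had the largest fall, 148 and 138 RPKM after second flush, against 331 and 301 RPKM at first flush (−1.09, SE 0.17, edgeR adjusted p = 0.000551). The inositol transporter 195216 the largest rise, 159 and 135 RPKM after second flush, against 74.9 and 64.7 RPKM at first flush (1.12, SE 0.17, edgeR adjusted p = 0.000356). In the starch, glycogen and trehalose list 5 of 22 rose and 4 fell, the 5 being 2 without after second flush library 2 or without either first flush library, and 3 on unscaled RPKM with a pseudocount of 1. Glucoamylase (gene 192455), which frees glucose from starch, rose to 236 and 302 RPKM after second flush, against 141 and 113 RPKM at first flush (1.14, SE 0.16, edgeR adjusted p = 0.000206), and an alpha-amylase (gene 211295) fell to 9.1 and 7.54 RPKM after second flush, against 36.8 and 24.4 RPKM at first flush (−1.83, SE 0.25, edgeR adjusted p = 0.000203).

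Of the 12 described genes with the largest rise, 5 were annotated as glutathione S-transferases, multidrug transporters or a monooxygenase of the P450 kind, a grouping made after the values were seen. Glutathione S-transferase 179427, of a family that tags foreign compounds with glutathione, had 183 and 203 RPKM after second flush, against 12.6 and 12.3 RPKM at first flush (log2 change 4.01, SE 0.56, edgeR adjusted p = 0.000989). Glutathione S-transferase 194394 had 197 and 249 RPKM after second flush, against 26.5 and 25 RPKM at first flush (3.17, SE 0.50, edgeR adjusted p = 0.00166). The transporter 225490, annotated as a drug exporter, had 537 and 368 RPKM after second flush, against 39.4 and 35.8 RPKM at first flush (3.64, SE 0.18, edgeR adjusted p = 3.3e-07). In these 3 the libraries of the stages were far apart. Its relative 74658 had 45.2 and 55.2 RPKM after second flush, against 3.21 and 2.63 RPKM at first flush (4.16, SE 0.27, edgeR adjusted p = 1.4e-06). Unspecific monooxygenase 70402 reached 1298 and 1627 RPKM after second flush, against 171 and 128 RPKM at first flush (3.35, SE 0.23, edgeR adjusted p = 1.77e-06), the highest level among the 12.

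Over the whole list of cytochromes P450 and glutathione transferases, 21 of 67 tested genes rose and 12 fell (median 0.10), so the 2 directions were both present. The largest falls were cytochromes P450 116469, with 2.5 and 2.07 RPKM after second flush, against 23.1 and 19.5 RPKM at first flush (log2 change −3.16, SE 0.27, edgeR adjusted p = 8.65e-06), and 122075, with 3.94 and 2.25 RPKM after second flush, against 30.2 and 21.9 RPKM at first flush (−3.02, SE 0.27, edgeR adjusted p = 1.01e-05). The most abundant member, glutathione S-transferase 193539, had 2254 and 2259 RPKM after second flush, against 4031 and 5302 RPKM at first flush (−0.997, SE 0.34, edgeR adjusted p = 0.0451). This call was lost in each of the 4 fits without 1 library (edgeR adjusted p 0.0614 to 0.197) and with no filter on low counts (edgeR adjusted p = 0.0515). Of 20 oxidative stress genes 10 rose and 3 fell, the 10 being 6 without after second flush library 2 or without first flush library 1. Thioredoxin 132659, a redox carrier, had 1229.9 and 1264 RPKM after second flush, against 279 and 321 RPKM at first flush (2.11, SE 0.13, edgeR adjusted p = 9.98e-07). The abundant catalase 195354 had 1874 and 1681 RPKM after second flush, against 1710.3 and 1661 RPKM at first flush (0.13, SE 0.28, edgeR adjusted p = 0.742).

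The remaining large rises had other annotations. Succinate-semialdehyde dehydrogenase (gene 195703), the last step of the GABA pathway into the citric acid cycle, had 504 and 434 RPKM after second flush, against 56 and 51.7 RPKM at first flush (log2 change 3.17, SE 0.17, edgeR adjusted p = 3.5e-07). Gene 192889, described as a dihydrofolate reductase, had 242 and 240.0 RPKM after second flush, against 31.9 and 27.2 RPKM at first flush (3.08, SE 0.14, edgeR adjusted p = 3.3e-07). One annotated as D-arabinose dehydrogenase (gene 191905) had 55.7 and 54 RPKM after second flush, against 6.83 and 6.46 RPKM at first flush (3.10, SE 0.18, edgeR adjusted p = 7.38e-07). None of these 3 was a member of a described list. Gene 211161, described as a subunit of the CCR4-NOT complex, had 404 and 409 RPKM after second flush, against 49.3 and 43 RPKM at first flush (3.19, SE 0.16, edgeR adjusted p = 3.3e-07). In all 4 the libraries of a stage were close together and the stages far apart.

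Of the 12 described genes with the largest fall, 1 was a methylisocitrate lyase and 1 an L-lactate dehydrogenase, and both families held rises as well. Methylisocitrate lyase 192813, which acts in the breakdown of propionate by the methylcitrate cycle, had 2.73 and 2.96 RPKM after second flush, against 59.6 and 46.6 RPKM at first flush (log2 change −4.16, SE 0.21, edgeR adjusted p = 3.3e-07). The genes annotated to that cycle, grouped after their values were seen, went both ways, with 2 of 5 higher and 3 lower (median −1.65). The most abundant of the 5, 2-methylcitrate dehydratase 135920, had 517 and 560.3 RPKM after second flush, against 232 and 235 RPKM at first flush (1.26, SE 0.14, edgeR adjusted p = 5.15e-05). Methylisocitrate lyase 193475 had 40.1 and 37.2 RPKM after second flush, against 16.6 and 16.7 RPKM at first flush (1.27, SE 0.18, edgeR adjusted p = 0.00021). The 5 together held 0.095% and 0.103% of reads after second flush, against 0.0596% and 0.0564% at first flush, higher after second flush in both libraries. The third fall beside 192813 and methylisocitrate lyase 192814 (−2.73, SE 0.31, edgeR adjusted p = 9.55e-05), methylisocitrate lyase 70190 (−1.65, SE 0.38, edgeR adjusted p = 0.00559), was lost without first flush library 1 (edgeR adjusted p = 0.0572). The L-lactate dehydrogenase of the cytochrome type that fell (gene 192811), an enzyme that oxidises lactate, had 6.62 and 7.73 RPKM after second flush, against 136 and 96.1 RPKM at first flush (−3.96, SE 0.21, edgeR adjusted p = 3.3e-07). The other 4 genes with that annotation, also grouped after their values were seen, all rose, and these were 2 without first flush library 1. The most abundant of them after second flush, gene 119340, had 149 and 156 RPKM after second flush, against 64.7 and 59.5 RPKM at first flush (1.35, SE 0.16, edgeR adjusted p = 5.62e-05).

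Hydrophobins, small secreted proteins that coat hyphae in air and mushroom surfaces, were lower after second flush. Of 7 genes 5 were tested and 4 fell (median −1.88), and together they held 0.284% and 0.363% of reads after second flush, against 1.48% and 1.79% at first flush. Hydrophobin 136569 had 2922 and 3417 RPKM after second flush, against 16564 and 19195 RPKM at first flush (log2 change −2.44, SE 0.16, edgeR adjusted p = 1.77e-06). Hydrophobin 193057 had 1949.9 and 2888 RPKM after second flush, against 7959 and 10535 RPKM at first flush (−1.88, SE 0.31, edgeR adjusted p = 0.00115). Hydrophobin 193052 had 265 and 302 RPKM after second flush, against 2019.6 and 2409 RPKM at first flush (−2.91, SE 0.30, edgeR adjusted p = 6.34e-05). In these 3 every after second flush library lay far below both first flush libraries. The fourth fall, gene 189334, had 5.0 and 3.58 RPKM after second flush, against 6.86 and 8.19 RPKM at first flush (−0.76, SE 0.28, edgeR adjusted p = 0.0489). This call was lost in each of the 4 fits without 1 library (edgeR adjusted p 0.0631 to 0.235), with no filter on low counts, with the replicate number as a block and in the fit of the 4 libraries alone (edgeR adjusted p = 0.0535, 0.0553 and 0.0731), and with DESeq2 (adjusted p = 0.147). At first flush 136557, a gene without a description, 136569 and 193057 were the 3 most abundant genes, and 136557 had 2183 and 3979 RPKM after second flush, against 24036 and 27715 RPKM at first flush (−3.01, SE 0.31, edgeR adjusted p = 5.94e-05). After second flush the first places went to elongation factor 1-alpha (gene 133083), with 6232 and 6771 RPKM after second flush, against 5455 and 5121 RPKM at first flush (0.35, SE 0.22, edgeR adjusted p = 0.231), and ubiquitin (gene 133168), with 4545 and 5554 RPKM after second flush, against 2219 and 2709 RPKM at first flush (1.09, SE 0.17, edgeR adjusted p = 0.000393), followed by 136569.

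Genes taken as markers of mushroom tissue were lower too. Of 12 fruiting body genes (tyrosinases, lectins and a fruit-body protein) 8 fell and 0 rose (median −1.43), and each had a read in at least 1 of the 4 libraries. Without 1 library 6 to 8 fell, and in the fit of the 4 libraries alone 1 rose. Their summed level was 313 and 299.9 RPKM after second flush, against 1062 and 789.7 RPKM at first flush. Tyrosinase 135027, which browns bruised mushrooms, had 19.3 and 13.6 RPKM after second flush, against 277 and 258 RPKM at first flush (log2 change −3.97, SE 0.33, edgeR adjusted p = 2.33e-05). At spawning, before mushrooms came, it had 90.9 and 70.6 RPKM. The list held 0.0424% and 0.0393% of reads at spawning, against 0.0336% and 0.0326% after second flush, so its genes are not read in mushroom tissue alone. The fruit-body specific protein D (gene 193061, picked after its values were seen) had 11 and 10.7 RPKM after second flush, against 64.9 and 77.3 RPKM at first flush (−2.66, SE 0.29, edgeR adjusted p = 6.14e-05). One lectin lay above its first flush range. An XCL-like lectin (gene 194894), also picked so, was not called, with 141 and 128 RPKM after second flush, against 76 and 64.3 RPKM at first flush (0.99, SE 0.69, edgeR adjusted p = 0.294). The part of these markers in the falls of laccases, hydrophobins, wall genes and cell division genes was not tested.

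**Figure D4:**
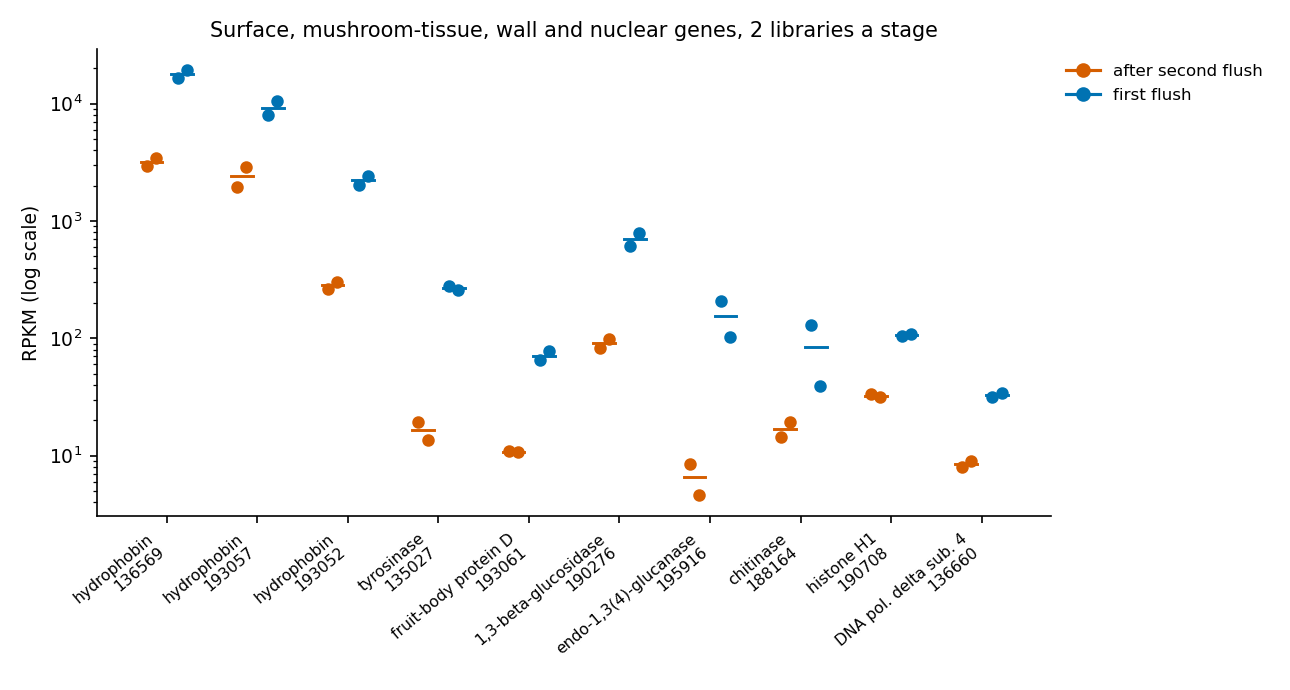
Points are the 2 libraries of each stage and short lines their mean, in RPKM on a log axis, for 10 genes of the hyphal surface, mushroom tissue, fungal wall and nucleus (gene numbers under the names). The hydrophobins and the glucosidase shown had the highest first flush levels of their annotation, and the other genes the largest fall of theirs. In each gene both after second flush libraries (orange, left) lie under both first flush libraries (blue, right), a shared direction set in large part by this choice.

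Genes that build or digest the fungal cell wall were more often lower: 21 of 60 tested fell and 6 rose (median −0.19). The 6 were 2 without after second flush library 2 or without first flush library 2, and 1 without first flush library 1. The largest fall was an endo-1,3(4)-beta-glucanase (gene 195916) with 8.5 and 4.6 RPKM after second flush, against 209 and 103 RPKM at first flush (log2 change −4.52, SE 0.35, edgeR adjusted p = 8.66e-06). Glucan 1,3-beta-glucosidase 190276, of a type that trims wall glucan, had 82.2 and 99 RPKM after second flush, against 608 and 790.0 RPKM at first flush (−2.89, SE 0.23, edgeR adjusted p = 5.26e-06). Its relative 183321 had 2.99 and 3.42 RPKM after second flush, against 51.8 and 18.4 RPKM at first flush (−3.39, SE 0.43, edgeR adjusted p = 0.000359). In these 3 the after second flush libraries lay far below those of first flush. The most abundant of the list, glucan 1,3-beta-glucosidase 229390, had 546 and 557 RPKM after second flush, against 631 and 566 RPKM at first flush (−0.06, SE 0.26, edgeR adjusted p = 0.867).

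Some chitinases were among the falls, and so were wall synthases. Chitinase 188164 had 14.4 and 19.3 RPKM after second flush, against 129 and 39.3 RPKM at first flush (log2 change −2.25, SE 0.48, edgeR adjusted p = 0.00636), and chitin synthase 212165 had 74.6 and 68.8 RPKM after second flush, against 129.8 and 121 RPKM at first flush (−0.75, SE 0.21, edgeR adjusted p = 0.0167). 1,3-beta-glucan synthase 226824 had 146 and 137 RPKM after second flush, against 222 and 222 RPKM at first flush (−0.59, SE 0.13, edgeR adjusted p = 0.00333), all 3 picked after their values were seen. The chitinase call was lost without after second flush library 1 (edgeR adjusted p = 0.053), and that of the chitin synthase in each of the 4 fits without 1 library (edgeR adjusted p 0.0528 to 0.0836). The largest fitted rise, in chitin deacetylase 219773, rested on 0.501 and 0.285 RPKM after second flush, against 0.073 and 0 RPKM at first flush and was lost in each of the 4 fits without 1 library (edgeR adjusted p 0.0733 to 0.208), with DESeq2 (adjusted p = 0.0945), with no filter (edgeR adjusted p = 0.054) and on unscaled RPKM (limma adjusted p = 0.0839 to 0.223).

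Genes of cell division were more often lower. In the cell cycle and DNA replication list 40 of 105 fell and 6 rose (median −0.39), and 40 became 22 without first flush library 1. The list held 0.845% and 0.812% of reads after second flush, against 0.99% and 0.924% at first flush, and 59 of its genes had their highest stage mean at first flush, against 24.7% of all tested genes. DNA polymerase delta subunit 4 (gene 136660, picked after its values were seen) had 8.04 and 8.92 RPKM after second flush, against 31.7 and 34 RPKM at first flush (log2 change −1.90, SE 0.20, edgeR adjusted p = 2.88e-05). The largest fitted fall, the G1/S cyclin PLC1 (gene 202115), had 1.01 and 1.13 RPKM after second flush, against 4.23 and 19.9983 RPKM at first flush (−3.44, SE 0.72, edgeR adjusted p = 0.00435). Its 2 first flush libraries lay far apart, and the fit of the 4 libraries alone did not call it (edgeR adjusted p = 0.0619). The ribonucleotide reductase subunit M2 (gene 116955), which makes DNA precursors, rose to 37.3 and 38.2 RPKM after second flush, against 10.1 and 10.4 RPKM at first flush (1.93, SE 0.25, edgeR adjusted p = 0.000139). The most abundant gene, thymidylate synthase (gene 194730), rose to 995 and 928 RPKM after second flush, against 546 and 675 RPKM at first flush (0.71, SE 0.16, edgeR adjusted p = 0.00528). This call was lost without first flush library 1 (edgeR adjusted p = 0.0595).

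Histones, the DNA-packing proteins, fell in 10 of 15 genes and rose in 1 (median −0.73). Histone H1 190708 had 33.3 and 31.6 RPKM after second flush, against 104 and 109.5 RPKM at first flush (log2 change −1.67, SE 0.15, edgeR adjusted p = 1.38e-05). The most abundant, histone 3 139997, had 691 and 613 RPKM after second flush, against 628 and 791 RPKM at first flush (−0.07, SE 0.15, edgeR adjusted p = 0.733), with overlapping libraries. The rise was histone H4 139588, with 335 and 298 RPKM after second flush, against 222 and 224 RPKM at first flush (0.56, SE 0.11, edgeR adjusted p = 0.0026).

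Nitrogen genes went in both directions. In the assimilation list 8 of 23 rose and 2 fell (median 0.15), the 2 being 1 without either after second flush library or without first flush library 2, and 4 in the fit of the 4 libraries alone. The main glutamine synthetase (gene 135514), which fixes ammonium, had 1586 and 1849.9 RPKM after second flush, against 706 and 845 RPKM at first flush (log2 change 1.20, SE 0.15, edgeR adjusted p = 9.8e-05). A second (gene 190495) had 17.7 and 15.2 RPKM after second flush, against 50.1 and 59.6 RPKM at first flush (−1.69, SE 0.26, edgeR adjusted p = 0.000544). Ornithine aminotransferase (gene 195122), which acts in arginine breakdown, had 971 and 949 RPKM after second flush, against 433 and 418 RPKM at first flush (1.23, SE 0.19, edgeR adjusted p = 0.000431). Among 15 nitrogen transporters 5 rose and 3 fell, the 5 being 3 without first flush library 2. The peptide transporter 195475 had 971 and 1209 RPKM after second flush, against 508 and 567 RPKM at first flush (1.08, SE 0.22, edgeR adjusted p = 0.00296). The ammonium transporter 189841 had 2.24 and 1.47 RPKM after second flush, against 9.22 and 12.6 RPKM at first flush (−2.51, SE 0.48, edgeR adjusted p = 0.00238).

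Proteases split as well, with 10 of 53 higher and 8 lower (median −0.02). The 10 were 6 without after second flush library 1 or first flush library 1 and 5 without first flush library 2, and the 8 were 5 without first flush library 1 and 14 in the fit of the 4 libraries alone. Of the genes annotated as cathepsin D, an aspartic protease of the vacuole, 149875 fell to 21.2 and 18.5 RPKM after second flush, against 109 and 207 RPKM at first flush (log2 change −2.95, SE 0.26, edgeR adjusted p = 1.79e-05), whereas 116292 rose to 779.5 and 715 RPKM after second flush, against 291 and 281 RPKM at first flush (1.44, SE 0.14, edgeR adjusted p = 1.59e-05). Prolyl oligopeptidase 219134, the most abundant, had 739.7 and 813 RPKM after second flush, against 376 and 344 RPKM at first flush (1.17, SE 0.14, edgeR adjusted p = 8.47e-05).

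Lists of protein synthesis and turnover lay nearer to the background shares. Of 87 translation factors and tRNA synthetases 23 rose and 6 fell. These became 12 higher without after second flush library 2, 15 higher without first flush library 1 and 3 lower without after second flush library 1. Of 61 chaperones 11 rose and 17 fell, and the 17 were 6 to 9 without 1 library (6 without after second flush library 1 or first flush library 1, 9 without after second flush library 2, 8 without first flush library 2), while the 11 were 7 without after second flush library 2. The proteasome had 3 higher and 8 lower of 38, with 1 higher without after second flush library 1 or first flush library 1 and 4 lower without after second flush library 1. Autophagy had 0 higher and 3 lower of 9, the 3 being 1 without after second flush library 2 or first flush library 2. The abundant HSP70 133986 had 2224 and 2039 RPKM after second flush, against 2939 and 3020.2 RPKM at first flush (log2 change −0.43, SE 0.14, edgeR adjusted p = 0.0258). This call was lost in each of the 4 fits without 1 library (edgeR adjusted p 0.072 to 0.115), and autophagy-related protein 8 (gene 190754) had 332 and 287 RPKM after second flush, against 355 and 425 RPKM at first flush (−0.29, SE 0.15, edgeR adjusted p = 0.138).

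Set among all 6 stages, the first flush was the extreme stage for most called genes. Of the 1833 genes higher after second flush, 1262 (68.8%) had their lowest stage mean at first flush, and 334 (18.2%) had their highest after second flush. Of the 1713 lower genes, 1227 (71.6%) had their highest stage mean at first flush and 314 (18.3%) their lowest after second flush. Over all tested genes these shares were 22.9%, 9.04%, 24.7% and 8.41%, and choosing genes by this contrast raises them. Among the fatty acid genes 28 of 41 were lowest at first flush, and among the citric acid and glyoxylate genes 21 of 27. Hydrophobins had another pattern: 4 of 5 were lowest after second flush and 1 was highest at first flush. Pectin enzymes differed again, with 6 of 15 highest after second flush and 2 lowest at first flush.

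**Figure D5:**
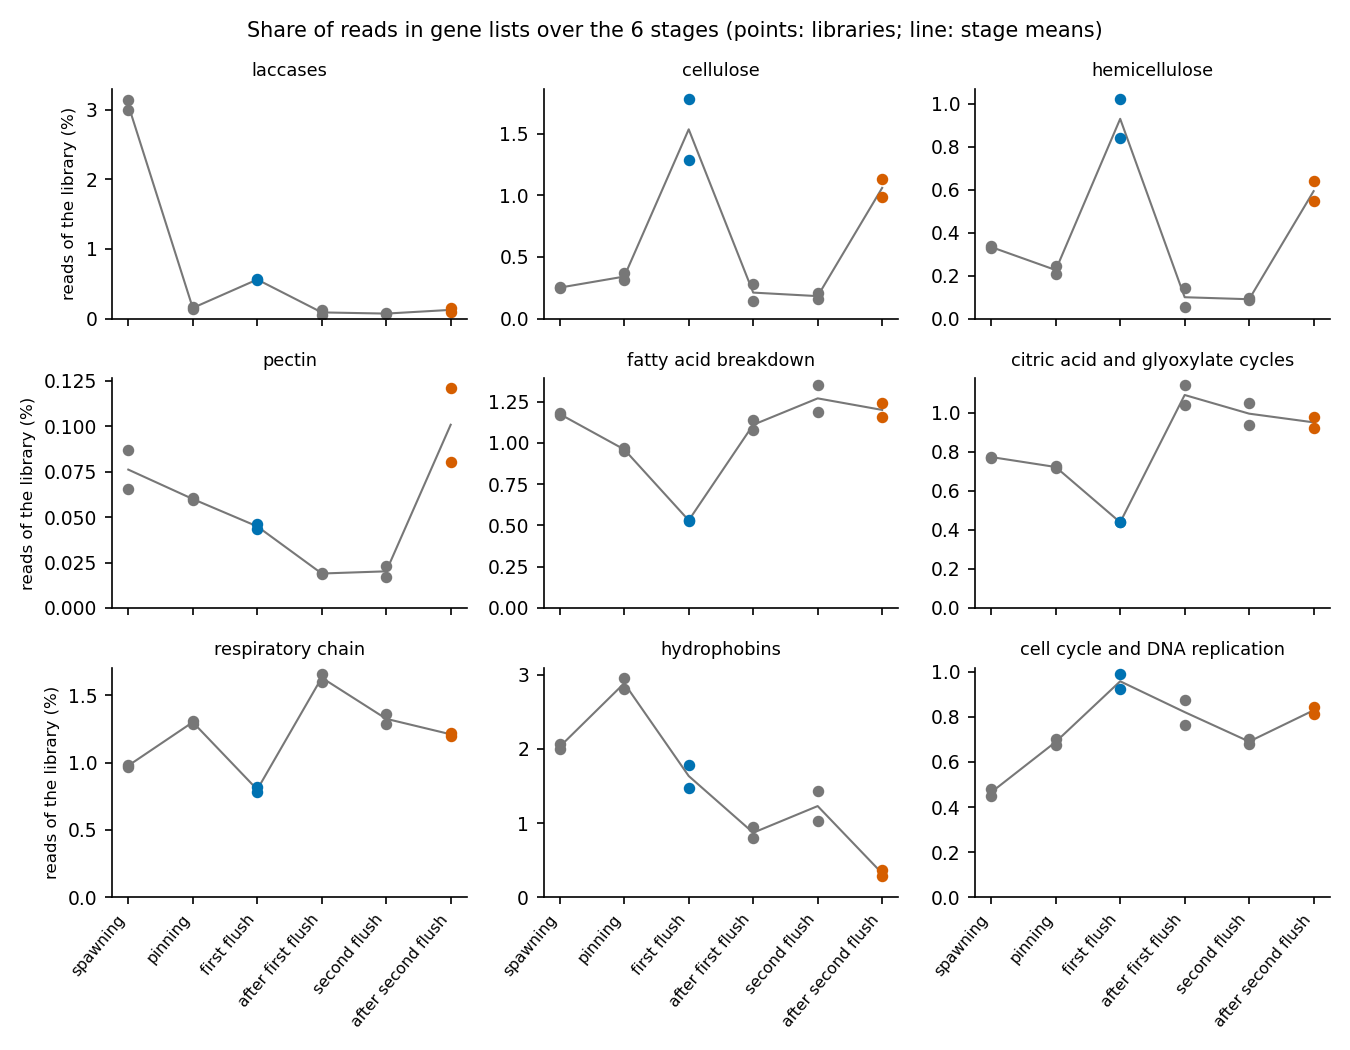
Each panel gives the percent of a library's reads in one gene list (vertical axis, from 0) over the 6 stages in order, with points for the 2 libraries of a stage, a line through the stage means, first flush in blue and after second flush in orange. Cellulose and hemicellulose shares are high at both of these stages, fatty acid breakdown and citric acid shares are lowest at first flush, and the hydrophobin share is lowest after second flush.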

How the data were processed

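Total RNA of compost mycelium was sequenced on an Illumina instrument, per the labels' protocols, as 12 libraries. The deposited files give, per the file headers, the count of uniquely placed reads for each gene and the RPKM that the authors computed from it, gene length and the library total. For aligner, genome build, annotation and strand setting, the sources used here give nothing. A gene missing from a file was taken as 0 reads. The 12 libraries hold 9502 genes, of which 9440 (99.3%) match a RefSeq locus tag of strain H97 by number, and 48.4% have a description in words. Counts were tested with edgeR 4.0.16 in R 4.3.3 (TMM, robust quasi-likelihood fit, Benjamini-Hochberg adjustment over the 8814 genes passing filterByExpr with a minimum count of 10 and a total of 15), with a term per stage over all 12 libraries, which share the spread. The SE is the log2 change divided by the square root of the F statistic. The code was tested on simulated data. Alternatives were RLE size factors, no filter, DESeq2 1.42.0, the 4 libraries alone, the replicate number as a block, each of the 4 libraries left out, and limma 3.58.1 on log2(RPKM + 1) or log2(RPKM + 0.1) for genes with a stage mean of at least 1 RPKM.

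The members and lists were chosen with earlier results of these data known. Lists were built from the descriptions, using KEGG matches with an E-value of at most 1e-15. The rule for naming took all laccase, peroxidase, cellulose, hemicellulose and pectin genes, the 12 described genes with the largest rise and the 12 with the largest fall (at least 20 CPM in the higher stage, no overlap), the largest rise, largest fall and most abundant member of each other list, and the 3 most abundant genes of each stage. Not all of these genes are given above. Of the laccase, cellulose, hemicellulose and pectin lists every called gene is, but many genes not called are left out. Other genes were chosen after their values were seen. Totals of 8.99 M to 9.22 M reads per library in the 2 stages make counting error small for all but genes with few reads.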

Additional observations from a re-analysis of the deposited data

How the results depend on the processing

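The counts of 1833 higher and 1713 lower genes were 1833 and 1712 with RLE size factors, 1806 and 1685 with no filter, 1711 and 1598 with DESeq2, 1723 and 1648 with the 4 libraries alone, and 1609 and 1820 on unscaled RPKM with a pseudocount of 1 (1579 and 1747 with 0.1), where the median log2 change was −0.05 and −0.06. Without 1 library they were 1220 to 1463 higher and 1130 to 1296 lower. The lone library left in a stage is then assumed to vary like the other stages. Of the 3546 calls, 1780 held in the same direction in all 4 such fits. Replicates of the same number deviated together with a correlation of 0.0136, so the numbers were not taken to pair the samples. With the replicate number as a block the counts were 1794 and 1681, and 3406 calls were kept. Of 165 tested genes named by rule, 115 were called, 91 of them in every fit without 1 library and 109 in every other alternative, and none changed direction with a call. The fit of the 4 libraries alone gave 11 further calls among them, including abundant xylanases and laccase-2, and lost 1. In some of these genes the 2 libraries of another stage lay far apart. After first flush, xylanase 196181 had 10.6 and 123 RPKM, and laccase-2 had 45.9 and 433 RPKM. The part of this in the calls was not tested. Genes with under about 1 RPKM rest on few reads, and 2 libraries a stage limit the precision of every value.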

Other observations

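Among genes with at least 20 CPM in the higher stage, the largest falls and the largest rise were in genes without a description, which were picked after their values were seen. Gene 138063 had 0.983 and 0.326 RPKM after second flush, against 163 and 86.3 RPKM at first flush (log2 change −7.47, SE 0.65, edgeR adjusted p = 4.89e-05). Gene 195855, the most abundant of these at first flush, had 36.6 and 17.3 RPKM after second flush, against 1968 and 1538 RPKM at first flush (−5.98, SE 0.62, edgeR adjusted p = 0.0002), and gene 194715 had 1.96 and 1.71 RPKM after second flush, against 157 and 216 RPKM at first flush (−6.59, SE 0.61, edgeR adjusted p = 5.58e-05). The largest rise, gene 180909, had 50.3 and 46 RPKM after second flush, against 2.91 and 1.7 RPKM at first flush (4.43, SE 0.31, edgeR adjusted p = 2.75e-06), and gene 194534, another rise, had 221 and 299 RPKM after second flush, against 26.9 and 28.2 RPKM at first flush (3.30, SE 0.40, edgeR adjusted p = 0.000287). All 5 kept their calls without any 1 library.

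Of 16 transporters annotated as multidrug exporters of the DHA1 family, also counted after their values were seen, 7 rose and 4 fell, and these were 4 and 2 without after second flush library 2 or first flush library 1, and the 4 falls were 2 without first flush library 2. Gene 145318 had 12.4 and 12.9 RPKM after second flush, against 0.569 and 0.211 RPKM at first flush (log2 change 5.04, SE 0.35, edgeR adjusted p = 1.99e-06), with few reads at first flush. In the sterol list 2 of 16 genes rose and 3 fell (median −0.31), with 1 rise without after second flush library 2 or either first flush library, and 1, 5 and 1 falls without after second flush library 1, after second flush library 2 and first flush library 1. On unscaled RPKM 6 sterol genes fell at either pseudocount. Hydroxymethylglutaryl-CoA synthase (gene 193269), an early step of the sterol route, had 2027 and 2399 RPKM after second flush, against 889 and 1018 RPKM at first flush (1.27, SE 0.20, edgeR adjusted p = 0.000466). C5-sterol desaturase (gene 218236), a late step, had 54.1 and 108 RPKM after second flush, against 247 and 232 RPKM at first flush (−1.49, SE 0.39, edgeR adjusted p = 0.0147), a call lost without after second flush library 1 (edgeR adjusted p = 0.0589) and without first flush library 1 (edgeR adjusted p = 0.0597).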
